A study of Mus musculus with 28 samples.

Results

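The genes described here encode 5 families of proteins that bind or process nuclear RNA: the heterogeneous nuclear ribonucleoproteins (hnRNPs), the serine- and arginine-rich splicing factors (SR proteins), the core and specific proteins of the small nuclear ribonucleoproteins (snRNPs), the SF3 subunits and the LSm proteins. They were chosen by symbol, as the protein-coding genes of both count tables whose names begin with Hnrnp, Srsf, Snrp, Sf3a or Sf3b, or Lsm (Srsf and Lsm followed by a digit). There were 65 of them: 20 hnRNP, 11 SR, 12 snRNP, 9 SF3 and 13 LSm genes, out of 15097 genes in one table and 15054 in the other (14888 in both). The rule uses names only, and all 65 passed the filter on low counts.

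Male C57Bl/6 mice were used throughout, and frontal cortex came from 1 hemisphere kept in RNAlater. Total RNA was depleted of ribosomal RNA and sequenced as 1 library per mouse. Chronic social stress (CSS) was set against unstressed controls: 8 mice housed in isolation for 7 weeks, with 2 confrontations a day during the final 20 days, and 8 controls, all aged 21 weeks. In a separate cohort, 6 mice with a model of type 2 diabetes (T2D), made with 75 mg/kg streptozotocin, which damages pancreatic beta cells, and a diet of 21 weeks that held 43.2% of its energy as fat, were set against 6 controls, all aged 30 or 31 weeks. The labels name no mutant allele, and each cohort had controls of its own. Depth, as the sum over a table's genes, was 14.3 to 37.5 M estimated counts a library in the CSS cohort and 12.1 to 22.7 M in that of T2D, and the RNA integrity number (RIN) was 8.5 or above in every library.

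In nuclei, hnRNPs coat new transcripts and often keep splice sites from being used, while SR proteins bind enhancer sequences in exons and recruit the splicing machinery. The Sm proteins, most of which are encoded by the Snrp genes, form a ring around spliceosomal small nuclear RNAs, and SF3A and SF3B hold U2 small nuclear RNA on the branch point of the intron. LSm proteins form a related ring on U6 small nuclear RNA and another in the cytoplasm that takes part in mRNA decay. Neurons depend on many of these factors for the alternative splicing of synaptic and ion channel genes, and several SR and hnRNP proteins control their own mRNA by splicing in exons that send it to nonsense-mediated decay.

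The libraries of the CSS cohort carry a code in their titles, with a number whose meaning the labels do not give, and the groups differ in it. Of the stressed mice 1 has C1, 1 has C2, 3 have C3 and 3 have C4, and of the controls 4 have C1, 3 have C2 and 1 has C3. The calls under CSS are therefore given over all 16 libraries and then also by this number. The difference between the cohorts and the mean levels per library were not fitted with it. The cortical identity of the tissue was also looked at: Slc17a7, the vesicular glutamate transporter of excitatory cortical neurons, was at 445 to 711 CPM (counts per M of the library's total) in CSS and 372 to 713 CPM in its controls, and at 362 to 808 and 505 to 734 CPM in T2D and its controls. Markers of striatal projection neurons, from the neighbouring striatum, were present as well. Their sum over 9 genes, unlike the level of the 1 gene Slc17a7, was 539 to 877 CPM in CSS and 609 to 1160 CPM in its controls. In T2D and its controls this sum was 148 to 1139 and 189 to 1064 CPM.

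Under chronic social stress 7 of the 65 genes fell and 1 rose. Those that fell were 5 hnRNP genes (Hnrnpdl, Hnrnph2, Hnrnph3, Hnrnpab and Hnrnpu), 1 SR gene (Srsf5) and 1 LSm gene (Lsm6), and the 1 that rose was Hnrnpll. The falls were of 11.4% to 25.9%, and no snRNP or SF3 gene passed. A gene is said to have changed, or been called, where edgeR's quasi-likelihood test gave a Benjamini-Hochberg adjusted p under 0.05 over all 15097 genes, and of all of these 4.52% were called, 2.11% as higher and 2.42% as lower. Among the members the share was 12.3%, and 45 of the 65 had a negative log2 change, against 48.7% of all genes. Of the 10209 genes with a mean of at least 10 CPM, 5.88% were called, 47.4% had a negative change and 24.8% an unadjusted p under 0.05. The median log2 change was -0.10 over the members and 0.01 over all genes. At an unadjusted p under 0.05 there were 24 lower and 5 higher members, where 10.5% of all genes were lower and 11% higher. With the title code number as a factor none of the 65 passed, 40 changes were negative and the median over the members was -0.04. In bulk tissue, fewer cells of a type and less RNA per cell cannot be told apart.

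**Figure D1:**
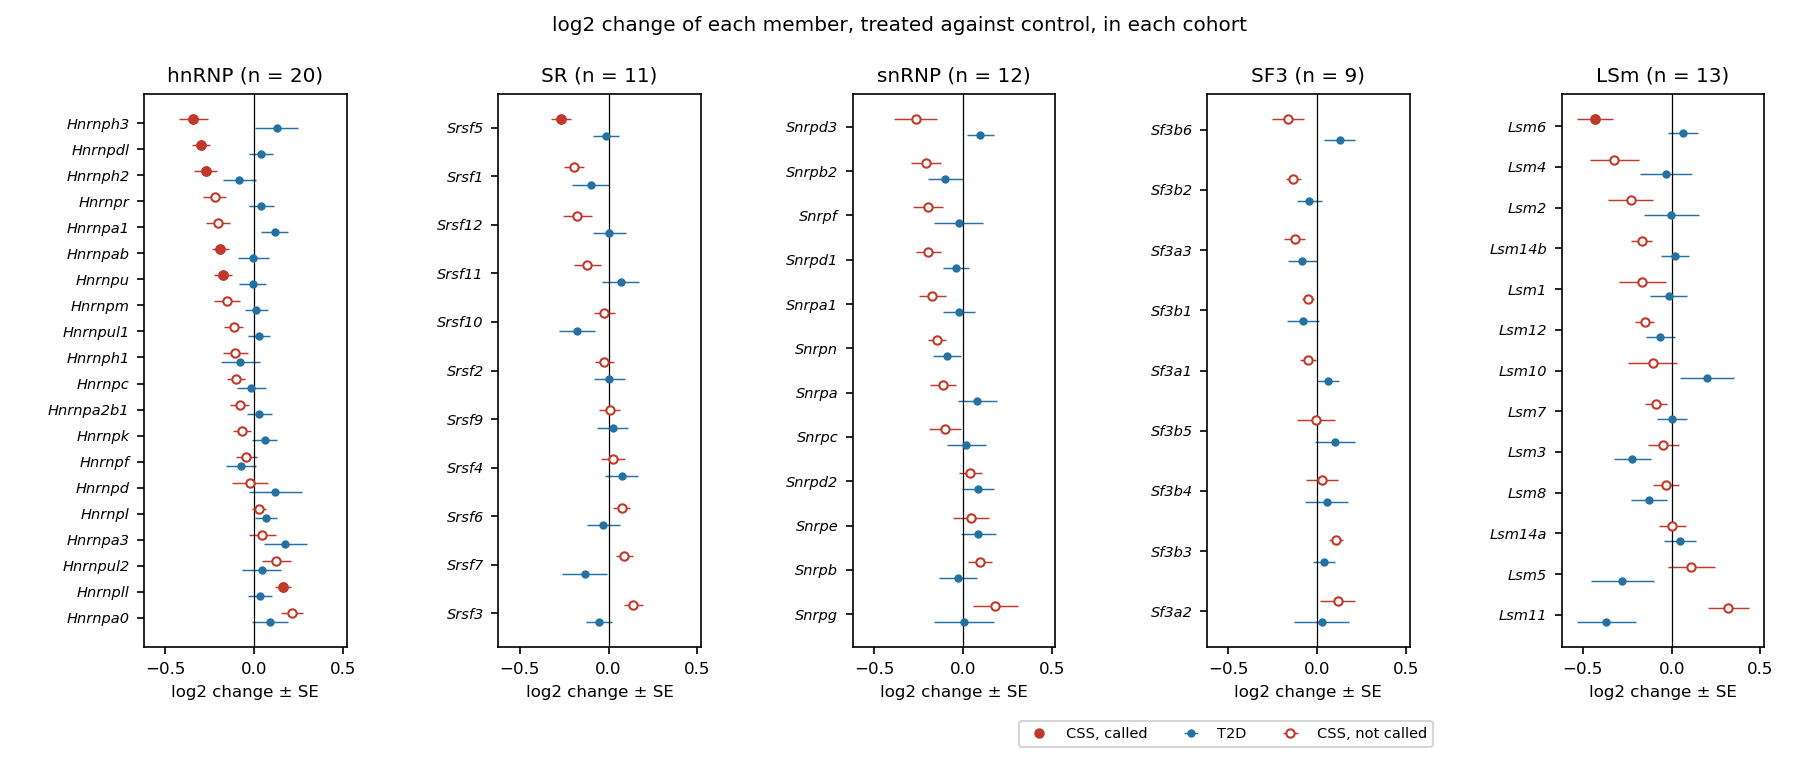
log2 change of each of the 65 genes with its standard error (horizontal axis, treated against control), one panel per family. Red circles are CSS, filled where the adjusted p was under 0.05, and blue points are T2D. Filled circles lie to the left of 0 for 7 genes and to the right for Hnrnpll, and the blue points, none of them called, lie between -0.37 and 0.20.

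Promoters of 3 of the 7 genes that fell are shown because they differ in the elements they hold: that of Srsf5, the SR gene, that of Hnrnph2, and that of Lsm6, in which none of the motifs searched was found. Each is the 250 bases before the RefSeq start (GRCm38.p6), written 5′ to 3′ on the strand of the gene. The windows are chr12:80945249-80945498 on the plus strand, chrX:134600929-134601178 on the plus strand and chr8:78821153-78821402 on the minus strand, and all 3 lie outside the GENCODE gene. Capitals mark matches on either strand to GGGCGG (a GC box), CCAAT (the CCAAT box) or CCGGAAG (an ETS site).
Srsf5: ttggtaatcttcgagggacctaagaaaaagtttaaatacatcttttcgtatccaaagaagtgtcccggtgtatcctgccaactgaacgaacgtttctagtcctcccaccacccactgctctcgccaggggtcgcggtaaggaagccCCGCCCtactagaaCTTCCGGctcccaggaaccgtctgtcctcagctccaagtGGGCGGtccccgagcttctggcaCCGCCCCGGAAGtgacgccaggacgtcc
Hnrnph2: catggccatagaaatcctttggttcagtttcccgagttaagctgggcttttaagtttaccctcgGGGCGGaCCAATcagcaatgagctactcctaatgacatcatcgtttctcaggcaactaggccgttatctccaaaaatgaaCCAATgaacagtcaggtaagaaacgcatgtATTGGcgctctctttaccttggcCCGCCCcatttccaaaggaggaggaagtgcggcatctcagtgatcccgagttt
Lsm6: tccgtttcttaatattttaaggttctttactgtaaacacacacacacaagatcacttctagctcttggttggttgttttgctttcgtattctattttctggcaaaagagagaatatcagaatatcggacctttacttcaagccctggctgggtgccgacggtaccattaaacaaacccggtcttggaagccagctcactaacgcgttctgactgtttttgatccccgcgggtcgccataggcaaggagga

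The Srsf5 window holds 3 GC boxes and 2 ETS sites, of which the pair nearest the start overlap, and that of Hnrnph2 holds 3 CCAAT boxes and 2 GC boxes. Promoters were found by symbol for 56 of the 65 genes, 75 windows in all. A GC box was present in 66.7% of these windows, against 56.6% of those of the protein-coding genes tested and 32.7% of all 32851 windows. The ETS site was present in 26.7% of the windows of the members, against 12.3% and 6.91%, and the CCAAT box in 41.3%, against 34.9% and 33.8%. Their median GC content was 61.6%, against 60.0% for the genes tested and 52.4% for all windows. Also searched on both strands were TATAAA (a core promoter element), CACGTG (an E box) and TGACGTCA (a cAMP response element). They were present in 6, 5 and 3 of the 75 windows, against 6.42%, 8.05% and 2.54% of those of the genes tested. Of the 7 genes that fell, 6 had a GC box, 2 a CCAAT box (Hnrnpab and Hnrnph2) and 1 an ETS site (Srsf5). Counted by gene, 71.4% of the 56 members had a GC box, 46.4% a CCAAT box and 28.6% an ETS site. The windows of Hnrnpdl and Hnrnph3 lie inside the GENCODE gene.

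Among the hnRNP genes, Hnrnpdl had the smallest p of all 65 members. It encodes the hnRNP D-like protein, which binds AU-rich RNA, and lies on chromosome 5 (100033577 to 100039664, minus strand, GRCm38). Its lowest, median and highest levels were 138, 148 and 156 CPM in CSS and 158, 181 and 198 CPM in the controls. Every stressed library was below every control. The groups did not overlap, in either direction, for 0.609% of all genes and for 2 members, this one and Srsf5. The mean was 148 ± 7.02 CPM in CSS and 181 ± 13.2 CPM in the controls (SD, n = 8 each), a log2 change of -0.30 ± 0.05 (SE, adjusted p = 0.0066).

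Hnrnph2 and Hnrnph3 encode members of the hnRNP H and F group, which bind runs of G in RNA. Hnrnph2 (chromosome X, 134601179 to 134607060) was at 101.2, 126 and 135 CPM in CSS and at 130.0, 147 and 166 CPM in the controls (lowest, median, highest). Of the 8 stressed libraries 6 were below every control, and the log2 change was -0.27 ± 0.06 (SE, adjusted p = 0.0232). Hnrnph3 (chromosome 10, 63014664 to 63024217) had ranges that overlapped: 16.4, 19.4 and 21.2 CPM in CSS and 20.3, 24.0 and 28.0 CPM in the controls, with 5 of the 8 stressed libraries below every control. Its log2 change was -0.34 ± 0.08 (SE, adjusted p = 0.0243). Hnrnph1, of the same group, was not called (log2 change -0.11 ± 0.07, adjusted p = 0.409).

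Hnrnpab encodes a protein that binds trafficking sequences of mRNAs carried into dendrites and glial processes. Its levels were 70.1, 76.5 and 82.0 CPM in CSS and 79.7, 88.3 and 93.5 CPM in the controls (lowest, median, highest), and 5 stressed libraries were below every control (log2 change -0.19 ± 0.05, SE, adjusted p = 0.0318). Hnrnpu, which encodes a nuclear matrix protein that binds chromatin as well as RNA, was at 491, 514 and 545 CPM in CSS and at 525, 582 and 643 CPM in the controls, so that the groups overlapped, and its log2 change was -0.17 ± 0.05 (SE, adjusted p = 0.0483).

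Hnrnpll was the only member that rose. It encodes the hnRNP L-like protein, known for the splicing of the leukocyte receptor gene Ptprc in lymphocytes. Its levels were 66.3, 75.2 and 81.4 CPM in CSS and 63.1, 67.3 and 69.1 CPM in the controls, and 7 of the 8 stressed libraries were above every control. The log2 change was 0.16 ± 0.04 (SE, adjusted p = 0.0433), while its relative Hnrnpl, which binds the same CA-rich motifs, had 0.03 ± 0.04 (adjusted p = 0.722).

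Just outside the threshold lay Hnrnpr, which encodes a protein that travels with mRNA in axons (log2 change -0.22 ± 0.06, adjusted p = 0.0540), and Hnrnpa0, which encodes another binder of AU-rich RNA (0.21 ± 0.06, adjusted p = 0.0541). Hnrnpa1 encodes the best known repressor of splice sites and had levels of 122 to 169 CPM in CSS and 151 to 197 CPM in the controls (-0.20 ± 0.07, adjusted p = 0.0945). The log2 change was -0.08 ± 0.05 for Hnrnpa2b1 and -0.07 ± 0.05 for Hnrnpk, with adjusted p of 0.403 and 0.482. Over the 20 hnRNP genes 15 changes were negative and the median was -0.10.

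Of the 11 SR genes 1 was called. Srsf5 (chromosome 12, 80945504 to 80950507, plus strand), whose promoter is printed above, encodes a splicing activator known as SRp40. It was at 242, 278 and 286 CPM in CSS and at 291, 324 and 364 CPM in the controls (lowest, median, highest), with no overlap. The means were 270.2 ± 15.4 and 325 ± 30.5 CPM (SD, n = 8 each), a log2 change of -0.27 ± 0.06 (SE, adjusted p = 0.0169). Srsf1, the first SR protein described and an activator of constitutive as well as alternative splicing, came closest to the threshold of those not called: 170 to 206 CPM in CSS and 188 to 242 CPM in the controls, a log2 change of -0.20 ± 0.06 (adjusted p = 0.0502).

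The remaining SR genes did not share a direction. Srsf3, the smallest SR protein, had a positive log2 change of 0.14 ± 0.06 (adjusted p = 0.143), with 8 of 8 stressed libraries above the mean of the controls. For Srsf2 the change was -0.02 ± 0.05 (adjusted p = 0.843), and 5 of the 11 SR genes had a positive change. The median over the family was -0.02.

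None of the 12 snRNP genes was called, although 8 changes were negative, the median was -0.13 and 6 had an unadjusted p under 0.05, all of them lower. Snrpn encodes SmN, the form of the SmB protein that neurons make from an imprinted locus, and was at 416, 479 and 542 CPM in CSS and 498, 524 and 557 CPM in the controls. Of the stressed libraries 6 were below every control, with means of 475 ± 40.3 and 525 ± 19.8 CPM (SD, n = 8 each) and a log2 change of -0.14 ± 0.05 (adjusted p = 0.106). Snrpb, which encodes the SmB form found in most tissues, had a positive change of 0.10 ± 0.07 (adjusted p = 0.436). The Sm ring proteins Snrpd1 and Snrpd3 had log2 changes of -0.19 ± 0.07 and -0.27 ± 0.12 (adjusted p = 0.124 and 0.215).

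Of the 9 SF3 genes none was called either. Those of smallest p were Sf3b2, which had 201 to 225 CPM in CSS and 219 to 255 CPM in the controls (log2 change -0.13 ± 0.04, adjusted p = 0.0804), and Sf3b3, with a change in the other direction (0.10 ± 0.04, adjusted p = 0.136). Both encode SF3B subunits. For Sf3b1, the subunit that contacts the branch point, the log2 change was -0.05 ± 0.04 (adjusted p = 0.422), and over the family the median was -0.05.

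Lsm6, whose protein is part of the nuclear as well as the cytoplasmic ring, had the largest fall of the 65 genes. It lies on chromosome 8 (78804865 to 78821140, minus strand) and was at 21.6, 24.7 and 27.0 CPM in CSS and at 25.3, 32.1 and 47.0 CPM in the controls (lowest, median, highest). Of the stressed libraries 5 were below every control, and the log2 change was -0.43 ± 0.10 (SE, adjusted p = 0.0250). The controls were spread widely, with an SD of 7.15 CPM against 1.55 CPM in CSS. Other proteins of the rings were not called: the log2 change was -0.17 ± 0.13 for Lsm1, which belongs to the cytoplasmic ring only, and -0.23 ± 0.13 for Lsm2, which is in both (adjusted p = 0.501 and 0.309). Lsm12, which is in neither, had -0.15 ± 0.05 (adjusted p = 0.0960), and Lsm11, a protein of the U7 particle that processes histone mRNA, had a positive 0.32 ± 0.11 (adjusted p = 0.110). Over the 13 LSm genes the median was -0.11.

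**Figure D2:**
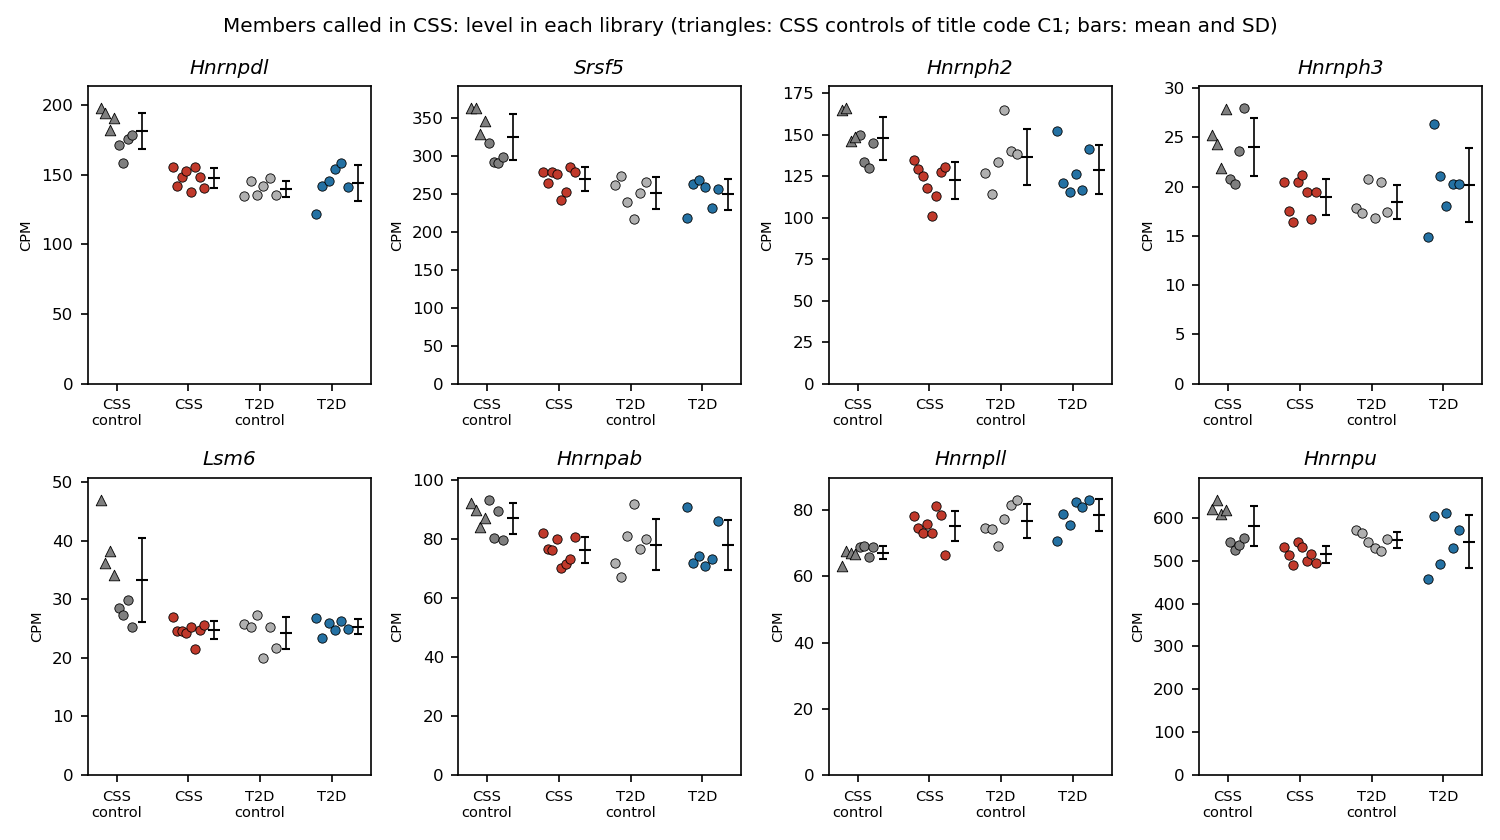
Level in every library (CPM, vertical axis from 0) of the 8 genes called under CSS, in the 4 groups, with the mean and SD to the right of each. Triangles are the 4 CSS controls of title code C1, and for Lsm6, Hnrnpu, Srsf5 and Hnrnpdl they lie above the 4 other CSS controls.

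The size of these changes depended on which controls were used. In Hnrnpu the 4 controls of code C1 were at 623 ± 14.2 CPM and the 4 of C2 or C3 at 540 ± 12.1 CPM (SD), with 515 CPM as the mean of CSS. Lsm6 was at 38.9 ± 5.64 and 27.8 ± 1.96 CPM in these controls, against 24.7 CPM in CSS, and Srsf5 at 351 ± 16.4 and 299.9 ± 12.5 CPM, against 270.2 CPM. For Hnrnpdl the values were 192 ± 6.70 and 171 ± 9.14 CPM, against 148 CPM, and all 8 stressed libraries were below all controls of either set, as for Srsf5. The controls of C1 were further from CSS than the others in all 8 called genes. In Hnrnph2 the log2 ratio of the CSS mean to that of the controls was -0.35 with C1 and -0.19 with C2 or C3. It was -0.39 and -0.29 in Hnrnph3, -0.21 and -0.17 in Hnrnpab, and 0.18 and 0.14 in Hnrnpll.

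With the 4 controls of C1 alone 18 members were called, 16 of them lower, and 1130 genes in all. With the 4 of C2 or C3 alone no member and no gene was called by edgeR. An unadjusted p under 0.05 was found for 10 of the 65 members and 1971 of the 15097 genes. With the number as a factor in the fit, 0 members and 2 genes were called. Of the 65 members 14, and of the 15097 genes 2006, then had an unadjusted p under 0.05. The log2 change of Hnrnpdl was then -0.28 (adjusted p = 0.0672), and across every alternative its adjusted p lay between 1.68e-06 with DESeq2 and 0.225 with the controls of C2 or C3. Srsf5 had -0.23 with the number as a factor (adjusted p = 0.145), Hnrnph3 -0.37 (0.129), Lsm6 -0.27 (0.275) and Hnrnpu -0.12 (0.300). Hnrnph2 had -0.21 (0.237), Hnrnpab -0.13 (0.388) and Hnrnpll 0.16 (0.259). The family medians moved as well: with the number as a factor that of the hnRNP genes was -0.04 and that of the LSm genes -0.03, where they had been -0.10 and -0.11. Those of the snRNP, SF3 and SR genes were then -0.10, -0.07 and 0.01. With the controls of C2 or C3 alone the hnRNP median was -0.03 and the LSm median -0.10. The 8 genes kept their direction in each of these fits, but the numbers are spread so unequally over the groups that the code and the treatment cannot be fully told apart.

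Single libraries mattered too. Leaving out each of the 16 libraries in turn gave 3 called members without stressed mouse 6 and 11 without control 6. Hnrnpdl, Srsf5 and Hnrnph3 were called in 16 of 16 such fits, Hnrnph2 and Lsm6 in 14, Hnrnpab in 11, and Hnrnpll and Hnrnpu in 3 each. Hnrnph2 was not called without stressed mouse 6 or control 1, and Lsm6 without stressed mouse 6 or control 2.

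The mean log2 level of all 65 genes, relative to the mean of the controls, was below 0 in 8 of 8 stressed libraries, at -0.07 ± 0.03. It was also below 0 in 4 of the 8 controls, with an SD of 0.05 among them. The groups overlapped, at -0.13 to -0.01 in CSS and -0.06 to 0.06 in the controls. By family the mean in the stressed libraries was -0.09 ± 0.06 in the hnRNP, -0.09 ± 0.07 in the LSm, -0.09 ± 0.09 in the snRNP, -0.04 ± 0.03 in the SR and -0.03 ± 0.03 in the SF3 genes. Stressed mouse 5 stood apart in the snRNP genes, at -0.29, with 11 of the 12 below the mean of the controls. This library had the lowest RIN of the cohort, 9.0. With RIN as a covariate 8 members were called, 7 of them genes called without it, and the median over the snRNP genes was -0.14.

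**Figure D3:**
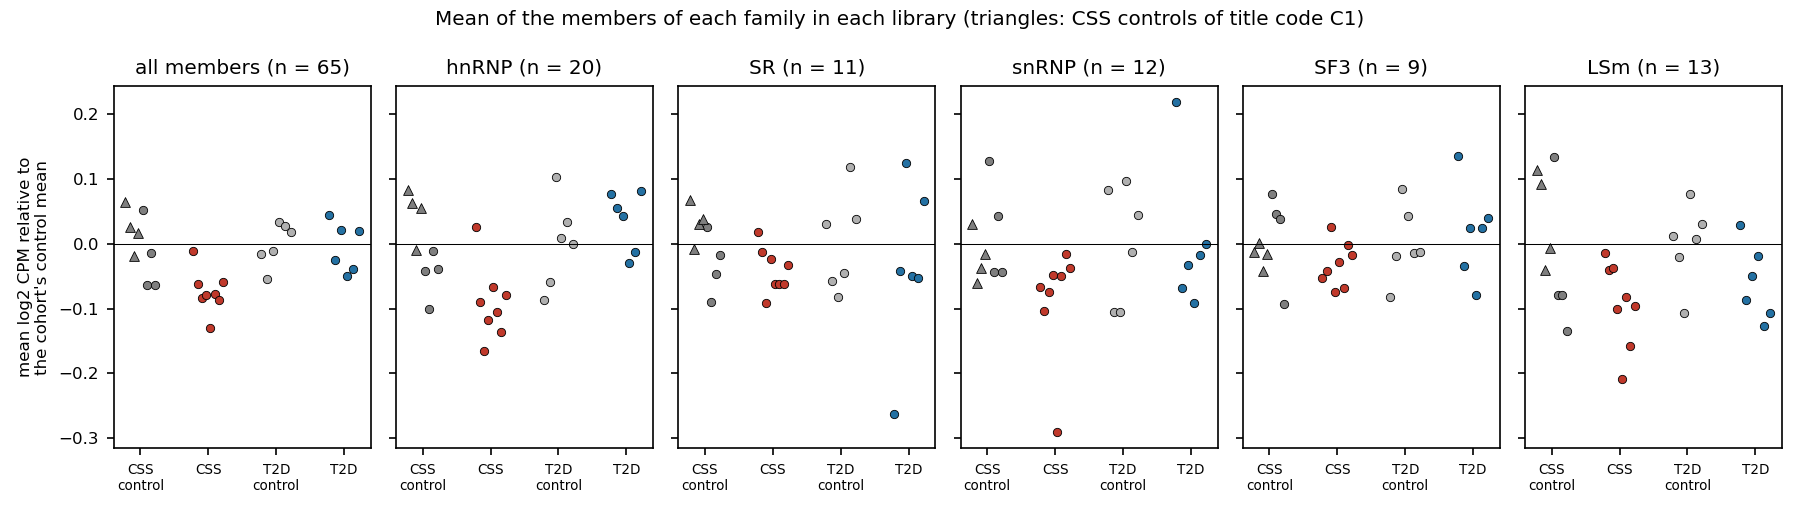
Mean log2 CPM of the members of each family in each library, relative to the mean of the controls of its cohort (vertical axis), in the 4 groups. Triangles are CSS controls of title code C1. Stressed mouse 5 lies at -0.29 in the snRNP panel, and T2D mouse 1 at -0.26 in the SR panel and 0.22 in the snRNP panel.

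Some markers of cell types were called under stress as well, where 2.42% of all genes were called as lower and 2.11% as higher. Of 8 microglial markers 4 fell (C1qa, C1qb, C1qc and Csf1r), and the list summed to 163 to 312 CPM in CSS and 298 to 347 CPM in the controls. Of 6 meningeal fibroblast markers 1 rose (Col1a1), with sums of 37.0 to 124 and 35.97 to 63.6 CPM. Of the endothelial markers 1 of 5 rose (Slco1a4), and of the inhibitory neuron markers 1 of 7 fell (Sst). None of the astrocyte, oligodendrocyte and striatal markers was called, but some lists shared a direction. Striatal changes were negative for 9 of 9 genes in CSS (median -0.27) and positive for 9 of 9 in T2D (median 0.58, none called). In CSS 5 of 5 astrocyte changes (median 0.15) and 6 of 6 meningeal fibroblast changes (median 0.68) were positive. Of the oligodendrocyte changes 5 of 6 were negative (median -0.06), where 48.7% of all genes were negative. With the title code number as a factor none of the 7 markers called under stress passed. The log2 change of C1qa was then -0.32 (adjusted p = 0.321), where it had been -0.45, and that of Col1a1 0.83 (0.194), where it had been 1.14. With the controls of C1 alone the change of C1qa was -0.44, and with those of C2 or C3 alone -0.47. For Col1a1 these were 1.19 and 1.09. With C1 alone Col1a1, Sst and Slco1a4 were called. In T2D no microglial marker was called by edgeR, but 8 of 8 changes were negative, with a median of -0.41, against -0.36 in CSS. No marker of these lists was at 0 in a library, and the part of these cell types in the changes of the 65 genes was not tested.

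In the T2D cohort no member was called. By edgeR 0 of 15054 genes were called (0%), with 879 (5.84%) at an unadjusted p under 0.05, and DESeq2 called 4. That count of 879 was 1817 without diabetic mouse 1, 1481 without control 3, 580 without diabetic mouse 5 and 554 without control 6, and no gene was called in any of these fits. Diabetic mouse 1 stood apart in the mean levels of the SR genes, at -0.26, and the snRNP genes, at 0.22, and without it the median change over the members was -0.01. Of the 65 members 1 had an unadjusted p under 0.05, Lsm11, with a log2 change of -0.37 ± 0.17 (adjusted p = 0.825). Its levels were 18.2, 22.8 and 31.9 CPM in T2D and 22.6, 30.4 and 40.7 CPM in the controls (lowest, median, highest), so the groups overlapped. The changes of the 65 genes lay between -0.37 and 0.20, 29 of them negative (49.2% of all genes), with a median of 0.01.

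The genes that changed under stress had standard errors in the diabetic cohort, with its 6 mice a group, that were mostly larger than under stress. Hnrnpdl was at 144 ± 12.8 CPM in T2D and 140.1 ± 5.63 CPM in its controls (SD, n = 6 each; log2 change 0.04 ± 0.07). Srsf5 was at 249.6 ± 20.0 and 252 ± 20.8 CPM (-0.01 ± 0.07), and Lsm6 at 25.3 ± 1.23 and 24.2 ± 2.76 CPM (0.07 ± 0.09). The log2 change was -0.08 ± 0.09 in Hnrnph2, 0.13 ± 0.12 in Hnrnph3, -0.01 ± 0.08 in Hnrnpu and 0.03 ± 0.07 in Hnrnpll, and Hnrnpab had means of 77.9 and 78.1 CPM. Adjusted p-values of these genes were 0.879 or above. For most of these genes, both groups of the diabetic cohort had mean levels nearer to the stressed mice than to the CSS controls. These were Hnrnpdl, Srsf5, Lsm6, Hnrnph3, Hnrnpab and Hnrnpll. Hnrnpu lay about midway, and Hnrnph2 lay nearer to the stressed mice in the T2D mice only. The cohorts differ in age and were deposited in separate tables, so no test was made across them.

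Other members of small p in this cohort came from the LSm and SR families. They were Lsm3 (-0.22 ± 0.11, unadjusted p = 0.0532) and Lsm5 (-0.28 ± 0.18), which belong to both rings, and Srsf10 (-0.18 ± 0.10), a splicing repressor in its dephosphorylated form. The largest positive changes were those of Lsm10 (0.20 ± 0.15), the partner of Lsm11 in the U7 particle, and Hnrnpa3 (0.17 ± 0.12). Among snRNP and SF3 genes the changes nearest to the threshold were Snrpd3 (0.10 ± 0.08), Snrpn (-0.09 ± 0.08), Sf3b6 (0.13 ± 0.09) and Sf3a3 (-0.09 ± 0.08). None of these was called.

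Whether the change under stress differed from that in diabetes was tested in 1 fit over all 28 libraries. No member was called, and 12 of 14888 shared genes were (0.0806%), while 11 members had an unadjusted p under 0.05 (9 lower and 2 higher), against 12.4% of all genes (6.36% lower and 6.00% higher). The difference, the CSS change minus the T2D change, was -0.34 ± 0.08 for Hnrnpdl (SE, adjusted p = 0.0672), and DESeq2 called it with the same value. It was -0.51 ± 0.14 for Lsm6 (0.145), -0.47 ± 0.14 for Hnrnph3 (0.151), 0.68 ± 0.21 for Lsm11 (0.166), -0.33 ± 0.11 for Hnrnpa1 (0.208) and -0.26 ± 0.09 for Srsf5 (0.225). Without CSS control 6 the difference of Hnrnpdl passed edgeR's threshold too, as the only member to do so with a library left out.

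Genes that work with the members were taken from 7 lists of other splicing, snRNP assembly and decapping factors, of which 165 of 166 genes were in the tables. Under stress 16 fell and 3 rose (11.5%), where 12.3% of the members and 4.52% of all genes were called. In T2D none of the 165 was called. Of 32 proteins of the U1, U2 and tri-snRNP particles 6 fell: Dnajc8 (log2 change -0.54, adjusted p = 0.0066), Snrnp70, the U1 protein that SR proteins contact (243 ± 12.8 CPM in CSS, 308 ± 30.7 CPM in the controls, -0.34, adjusted p = 0.0075), Luc7l3 (-0.44), Prpf31, Sart1 and U2af1. Of 30 Prp19 complex and second-step factors 2 fell, Ik (-0.34) and Cwc15 (-0.23), and of 11 exon junction complex genes 3 fell, Upf3b (-0.33), Rbm8a (-0.28) and Rnps1 (-0.15).

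Among 9 kinases that act on SR proteins Clk2 fell (26.9 ± 1.26 CPM in CSS and 33.1 ± 3.01 CPM in the controls, SD, n = 8 each; log2 change -0.30, adjusted p = 0.0126). Of 54 other splicing regulators 4 fell and 2 rose. Over this list 32 changes were negative and 22 positive, with a median of -0.006. Those that fell included Qk, the quaking gene of glia (-0.27), Nono (-0.24) and the cold-inducible gene Cirbp (-0.35). None of 22 snRNP assembly genes was called, and of 8 decapping factors 1 rose, Edc3 (0.39, adjusted p = 0.0289). With the title code number as a factor, or with the controls of C2 or C3 alone, 0 of the 165 were called, and with those of C1 alone 31 were. The count was 6 without stressed mouse 6 and 23 without control 6. Dnajc8, Snrnp70, Luc7l3, Ik and Clk2 were called in 16 of 16 fits that leave out 1 library, Nono in 15, Cirbp in 14, Qk and Upf3b in 13 and Edc3 in 10, but Rbm8a in 5, Cwc15 in 4 and Rnps1 in 3.

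Levels of different genes were compared per length, as CPM per kb of the longest annotated transcript, in the CSS controls. Snrpn was the highest of the 65, at 253 ± 9.53 CPM per kb (SD, n = 8), followed by Hnrnpk, a binder of C-rich RNA, at 118 ± 7.28, Srsf5 at 93.5 ± 8.75, Hnrnpu at 76.1 ± 6.06 and Sf3b2 at 72.1 ± 4.37. The libraries of Snrpn and Hnrnpk did not overlap, while those of Srsf5 (83.5 to 104) and Hnrnpu (68.7 to 84.2) did, as did those of Hnrnpu and Sf3b2. Snrpn was also the highest in the other 3 groups, at 229 ± 19.4 in CSS, 237 ± 9.35 in the T2D controls and 223 ± 28.5 in T2D. Snrpb was at 18.9 ± 1.97 CPM per kb in the CSS controls. The family medians were 35.4 for hnRNP, 34.3 for SR, 14.8 for SF3, 12.9 for snRNP and 5.69 for LSm genes, and Lsm2, at 2.26 ± 0.468, was the lowest of all.

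**Figure D4:**
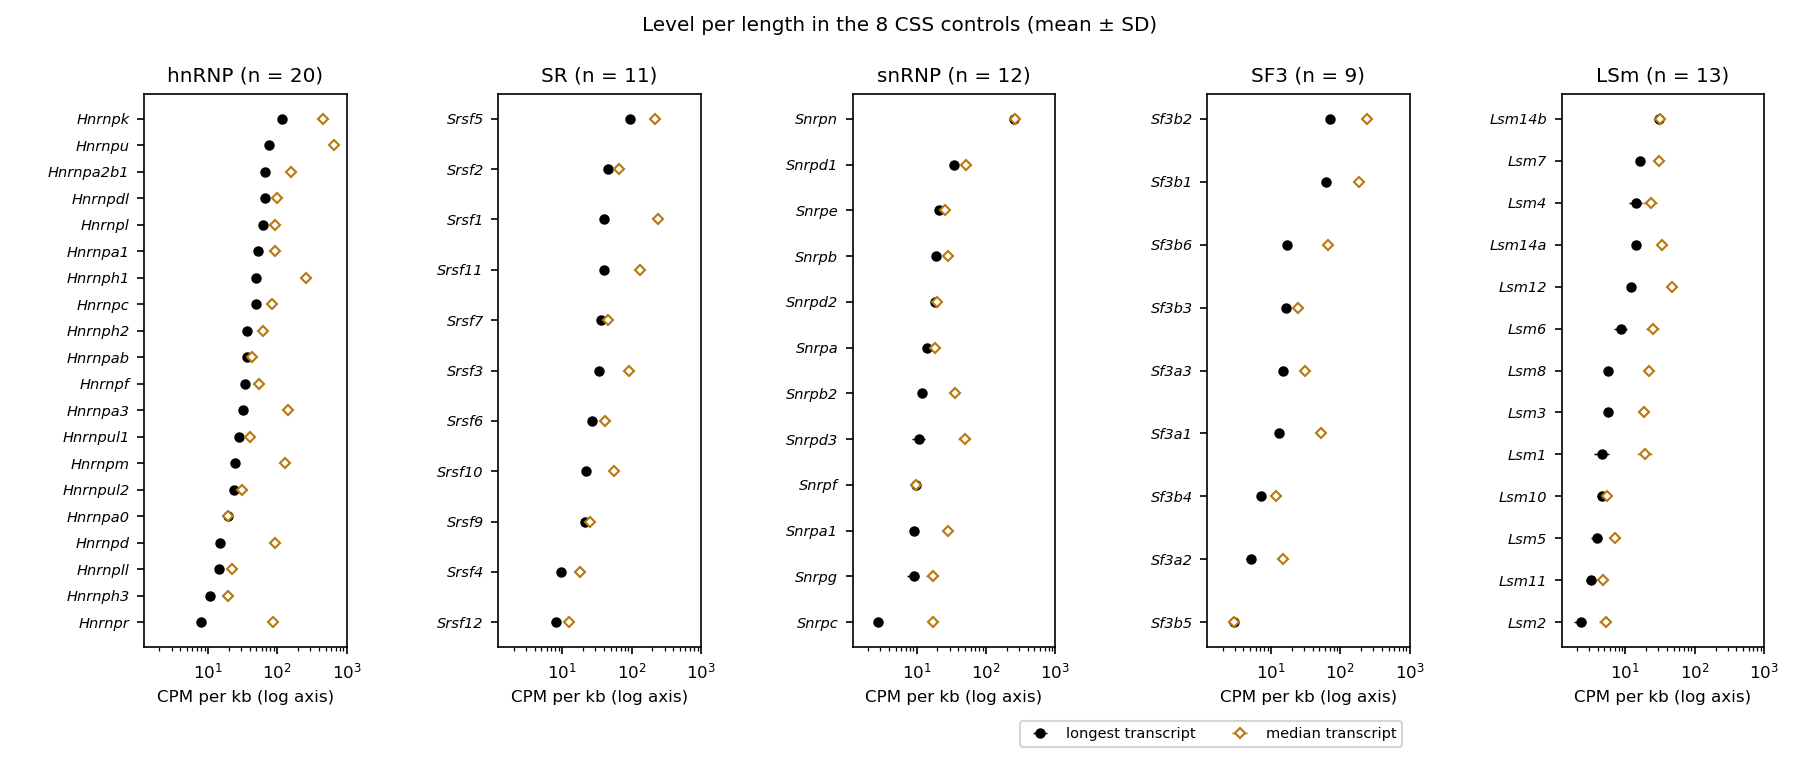
CPM per kb (log axis) of each gene in the 8 CSS controls, mean and SD, one panel per family. Black circles use the longest annotated transcript, and open diamonds the median one. Snrpn is the highest with the first length and Hnrnpu, at 669, with the second.

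The order depends on the length chosen. With the median transcript length Hnrnpu came first, at 669 CPM per kb, followed by Hnrnpk at 456, Hnrnph1 and then Snrpn at 262. In the GENCODE annotation 28 of the 65 genes (43.1%) had a transcript of the nonsense-mediated decay class, against 28.1% of 13511 protein-coding genes, and 9 of the 11 SR genes had one (81.8%). A retained-intron transcript was annotated for 47 (72.3%), against 57.6%. Of the 7 genes that fell under stress 4 had a decay-class transcript. The counts are per gene and do not tell these transcripts from those that code.

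Several members share sequence with other genes, which bears on how reads were assigned. Of the 31-base words in their transcripts, 48.6% in Sf3b4, 38.5% in Hnrnpf, 29.3% in Hnrnpa1, 28.6% in Snrpn and 28.1% in Hnrnpa3 also occur in transcripts of another gene. Among those called the share was 21.9% in Hnrnph2, 14.1% in Srsf5, 5.84% in Lsm6, 5.54% in Hnrnpdl and 2.10% in Hnrnpab, and lower in the other 3 (0.561% in Hnrnpll, 0.340% in Hnrnph3 and 0% in Hnrnpu). Exons of Hnrnpab overlap those of Phykpl on the opposite strand over 29.1% of their length, and those of Hnrnpu overlap Cox20 over 6.93%. The largest overlaps on the same strand were those of Snrpn with Gm38393, over 27.3%, and of Hnrnpm with March2, over 14.7%. How far this affects the estimated counts of genes with a large share, such as Hnrnph2 or Snrpn, was not tested.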

How the data were processed

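Per the labels, 28 mice gave 1 library each (TruSeq stranded total RNA after ribosomal RNA depletion). The authors deposited estimated counts of genes, 1 table a cohort. Per the submitters' processing notes, tools included Salmon 1.1.0, with mm10 as build. The summing of transcripts to genes, and any scaling for length, is not given in the sources used here. The values were rounded, filtered with edgeR's default filter, scaled by TMM and fitted over all genes of a table with edgeR 4.0.16 (robust quasi-likelihood test, R 4.3.3), with Benjamini-Hochberg adjustment and a threshold of 0.05. CPM use TMM-scaled totals. Alternatives were other scalings and filters, DESeq2 1.42.0, limma 3.58.1 with voom, RIN, a replicate block, the title code and leaving out each library. Members, gene lists and tests were chosen with earlier results of these data known. Members were named where called, where among the 2 of smallest p of a family or the 2 largest changes in either direction in a fit, or from a fixed list of 13. Hnrnph1, Hnrnpl and Hnrnpr were added after their values were seen, and so were the lists' members beyond the 3 of smallest p. Annotation was GENCODE M21, promoters were from RefSeq. Features of the proteins were not analysed here. The summed level of the excitatory neuron marker list is not reported here. The self-test on simulated counts was passed.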

Additional observations from a re-analysis of the deposited data

Results flagged for a closer look

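Among the 35 named genes, 140 groups of libraries were searched for a single library standing far from the rest, by its gap to the nearest of the others as a share of the whole range on the log2 CPM scale. Chance would mark about 5% of such groups, and 2 were marked. Lsm6 was at 21.6 CPM in stressed mouse 6, the lowest of its group, where the other 7 were between 24.3 and 27.0 CPM. Hnrnpk was at 394 CPM in diabetic mouse 1, the highest of its group, where the others were between 338 and 354 CPM. By edgeR over all libraries no member's change differed between the cohorts past the threshold, but that of Hnrnpdl did with DESeq2 and, by edgeR, without CSS control 6.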

How the results depend on the processing

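Under CSS the choice of controls moved the calls. The number of members called was 8, and became 0 with the title code number as a factor, 0 with the controls of C2 or C3 alone and 18 with those of C1 alone. Over all genes (683) these gave 2, 0 and 1130, and over the other pathway genes (19) 0, 0 and 31. DESeq2 called 13 members, 1280 genes and 32 pathway genes under CSS, 4 genes in T2D, and 112 genes, 1 member and 1 pathway gene for the difference between the changes. For that difference (12 genes) 5 were called with no scaling factor, 21 with a mean of at least 10 CPM, 0 with limma voom, 0 with RIN as a covariate and 32 with the replicate block.

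Leaving out 1 library gave 3 to 11 members, 222 to 794 genes and 6 to 23 pathway genes under CSS, and 0 to 0 of each in T2D. For the difference it gave 0 to 32 genes, 0 to 1 members and 0 to 1 pathway genes. Members called were 9 with RLE size factors, 7 with no scaling factor, 8 with no filter and 8 with voom. With the replicate block 7 members were called under CSS, 5 of them among the 8, and 478 genes. Replicate numbers did not pair the samples: same-numbered libraries had deviations correlated at -0.163 to 0.334 in CSS (3 of 8 over 0.1, 2 best with their own number) and -0.0144 to 0.135 in T2D (1 of 6, 0 best). Among the named genes signs turned only in uncalled ones: Srsf2 was at 0.0050 with the code as a factor, 0.0010 with the controls of C2 or C3 and -0.053 to 5.25e-05 with 1 library left out (the last without stressed mouse 7), Lsm1 at 0.14 with the code as a factor and Snrpb at -0.017 with the controls of C2 or C3. The median level per length over the named members was 22.2 CPM per kb with the longest transcript and 51.0 with the median one. Why these settings moved the counts was not tested. Intervals of a value rest on 6 or 8 mice a group.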
